A study of Homo sapiens with 16 samples.

Results

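The replication-dependent histone genes encode the core histones H2A, H2B, H3 and H4 and the linker histone H1 that package newly made DNA. They were followed here in 16 established human lines of T-ALL, the acute lymphoblastic leukemia that arises from immature T cells. Members were all genes of the array annotation whose current symbol is H1-1 to H1-6, or H2AC, H2BC, H3C or H4C with a number, without pseudogenes. The annotation held 61 of them, namely 6 H1, 14 H2A, 16 H2B, 10 H3 and 15 H4 genes. Of these 42 had a probe set naming only that gene, among 19775 genes with such a probe set, and 19 were named only on probe sets shared with other histone genes. Another 8 symbols of this form in the RefSeq table, such as H2AC20, H2BC18 and H3C13, were not analysed here.

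The lines are ALL-SIL, CCRF-CEM, DU528, HSB-2, JURKAT, KOPT-K1, LOUCY, MOLT-16, MOLT-4, P12-ICHIKAWA, PEER, PF-382, SKW-3, SUP-T11, SUP-T13 and TALL-1. Each was grown untreated in RPMI-1640 with 10% FBS and antibiotics, and total RNA was taken after 24 hours and hybridised to 1 Affymetrix U133 Plus 2.0 array. The lines form 1 group with no control and no repeated line, so no value has a replicate error, and each SD is the spread between different lines. Genotype, age and passage were not in the labels used here, and each line stands for itself as a long-cultured model.

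Histone genes of this class lie in clusters, the largest on chromosome 6, and are switched on as cells enter S phase. Their mRNAs lack introns and normally end in a conserved stem-loop in place of a poly(A) tail. SLBP binds that stem-loop and carries the mRNA through processing, translation and decay, while NPAT and CASP8AP2 (FLASH) act in the nuclear bodies where the genes are transcribed. Some of these genes, such as H2BC12, H2BC21 and H2AC6, can also give polyadenylated transcripts that last outside S phase. The labels name the manufacturer's standard biotin protocol and do not state the primer, so how the tailed and untailed forms are weighted in these values is not known.

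Arrays were of similar scale, with medians between 37.6 in MOLT-16 and 44.96 in LOUCY. The ACTB 3'/5' ratio of the array's control sets, which follows RNA integrity, ran from 1.44 in DU528 to 2.03 in MOLT-4. All 10 T-cell markers reached 4 times the table median in at least 1 line and 6 of them in every line, CD3D lying between 7095 and 14179, and their summed intensity was between 11811 in MOLT-16 and 43386 in KOPT-K1. Of the other markers, 3 of 4 B-cell, 5 of 6 myeloid, 2 of 3 erythroid and 5 of 5 stromal genes never reached that level, the exceptions being BLK, LYZ and HBB. Their summed intensities ran from 114 to 1354, 123.4 to 507, 38.1 to 319 and 155 to 283 in that order, and their part in the histone values was not tested.

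Few histone genes read high in every line on probe sets of their own. The median of the whole table was an intensity of 42.4, and a gene was said to reach the limit where its intensity was at least 4 times this, 169.5. Of the 42 genes, 19 did so in at least 1 line, against 54.9% of all genes, and 3 (H1-2, H2BC12 and H4C11) did so in every line, against 32.2%. Without JURKAT, where H2BC5 and H2BC6 missed the limit, 5 did so. By family the 19 genes that reached it in at least 1 line were 4 of 6 H1, 5 of 8 H2A, 8 of 13 H2B, 1 of 7 H3 and 1 of 8 H4 genes. Of the others, 7 were below the table median in every line on their chosen probe set, against 24.4% of all genes, among them H1-1, H1-6, the germ-cell linker histone, and H2BC1, the germ-cell H2B. H3C6 is another of the 7, but its second probe set read 86.3 in PEER. The nearest to the limit from below was H3C2 (highest 155 in PEER), followed by H2AC16 (96.5 in SUP-T11), H2BC3 (93.8 in SUP-T11) and H4C4 (92.2 in CCRF-CEM), and the nearest above it was H3C7 (highest 174 in TALL-1). Probe sets differ in how well they bind, so the level of one gene is not ranked against that of another.

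**Figure D1:**
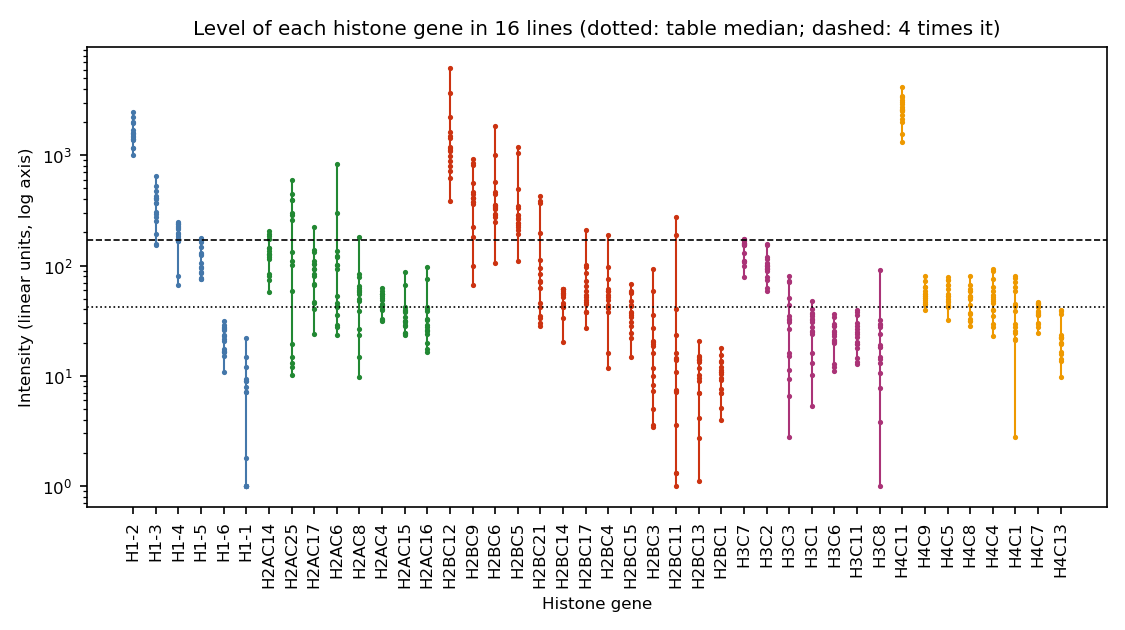
Intensity (log axis, linear units) of each of the 42 histone genes with a probe set of its own; each point is 1 of 16 lines and each vertical line spans the lowest to the highest. Only H1-2, H2BC12 and H4C11 lie above the dashed line, 4 times the table median, in all lines.

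On log2(intensity + 16), the scale of every SD and slope below, the median SD over lines was 0.43 for the 42 genes and 0.35 for all genes. By family it was 0.38 for H1, 0.56 for H2A, 0.69 for H2B, 0.33 for H3 and 0.32 for H4. The added 16 narrows the spread of low values, and 6 of 7 H3 and 7 of 8 H4 genes never reached the limit. An SD above 1 was found for 4 of the 42, namely H2AC25, H2BC11, H2AC6 and H2BC21, against 12.5% of all genes. This count was 10 with log2(intensity + 1) and 1, H2AC25, with log2(intensity + 64), and H2BC11 was above the table median in only 2 lines.

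The linker histones bind DNA between nucleosomes, and the 4 that reached the limit had SDs between 0.34 and 0.57. H1-2 (older name HIST1H1C) had a lowest intensity of 1011 in JURKAT, a median of 1536 and a highest of 2478 in LOUCY, with an SD of 0.34. All lines thus lay within 2.45-fold of each other. H1-3 ran from 154 in MOLT-16 through a median of 368 to 650.3 in SKW-3 (SD 0.57), and SUP-T11 (157) was as low as MOLT-16. H1-4 ran from 66.6 in SUP-T11 through 207 to 249.2 in TALL-1 (SD 0.49), and 14 lines lay between 166 and 249.2, with HSB-2 (80.9) and SUP-T11 apart below them. H1-5 was between 75.4 in HSB-2 and 178 in ALL-SIL, with a median of 115, and passed the limit only in ALL-SIL and TALL-1 (172). HSB-2 and SUP-T11 were thus among the lowest lines for H1-3, H1-4 and H1-5. For H1-2 they had 1500.4 and 1408, also below the median of 1536, but JURKAT, MOLT-16 and MOLT-4 were lower.

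The H2B genes had the largest family median SD, and most of them were high in the same few lines. H2BC12 (HIST1H2BK) was 6214 in SUP-T11, 3716 in PEER and 2225 in LOUCY, had a median of 1146, and was lowest in JURKAT (388), a 16.03-fold span with an SD of 0.96. H2BC5 (HIST1H2BD) was 1189.5 in SUP-T11, 1039.6 in PEER and 491 in LOUCY, with a median of 268 and a lowest value of 110.1 in JURKAT. H2BC6 was 1845 in SUP-T11, 1014 in PEER and 577 in LOUCY, with a median of 342 and a lowest value of 105 in JURKAT. The same 3 lines stood at the top and the same line at the bottom in each of these genes.

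H2BC11 was 276 in SUP-T11 and 190.5 in PEER, 40.7 in LOUCY and at most 23.2 in the other 13 lines, of which MOLT-4 was listed at 1. H2BC21 (HIST2H2BE), on chromosome 1, had TALL-1 among its highest lines: it was 429 in SUP-T11, 381 in TALL-1, 367 in PEER and 196 in LOUCY, with a median of 71.9 and a lowest value of 28.2 in KOPT-K1. H2BC9 was 920.2 in SUP-T11, 853 in TALL-1 and 819 in CCRF-CEM, had a median of 409, and read lowest in JURKAT (67.0), MOLT-16 (99.4) and DU528 (182). H2BC17 (208 in PEER, 102 in SUP-T11, median 53.0, lowest 27.1 in JURKAT) and H2BC4 (189 in PEER, 96.6 in ALL-SIL, median 52.6, lowest 11.8 in JURKAT) passed the limit in PEER alone. The other 5 H2B genes stayed below it, H2BC14 between 20.4 and 61.8 and H2BC15 between 14.8 and 67.8.

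The H2B probe sets are not independent measurements. The coding regions of these genes are nearly alike, and the suffix _x_at, carried by the probe sets of H2BC5, H2BC6 and H2BC9, marks sets whose probes can bind other transcripts. Over the 16 lines, which share 1 platform and 1 laboratory, H2BC5 and H2BC6 had r = 0.974, and H2BC5 had r = 0.963 with a set naming H2BC4, H2BC6, H2BC7, H2BC8 and H2BC10. Genes whose own sets lack this suffix were divided: H2BC5 had r = 0.915 with H2BC12, 0.901 with H2BC11 and 0.826 with H2BC21, whose set is of the _s_at kind that can bind related transcripts, each over 16 lines and given as a description. The rank correlations were lower, at 0.671, 0.667 and 0.785. By contrast r with H2BC5 was 0.46 for H2BC15, 0.327 for H2BC1, 0.052 for H2BC14 and -0.18 for H2BC13. All of these stayed below the limit, but so did H2BC3, which had r = 0.903 with H2BC5. H2BC17 and H2BC4, which passed it in PEER alone, had r = 0.809 and 0.653. H2BC12L, a related gene outside the rule by its name, spanned 138 in JURKAT to 3119 in SUP-T11 on an _x_at set. H2BC12 had r = 0.958 with that set (rank correlation 0.832) and 0.971 with the set naming H2BC4, H2BC6, H2BC7, H2BC8 and H2BC10.

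**Figure D2:**
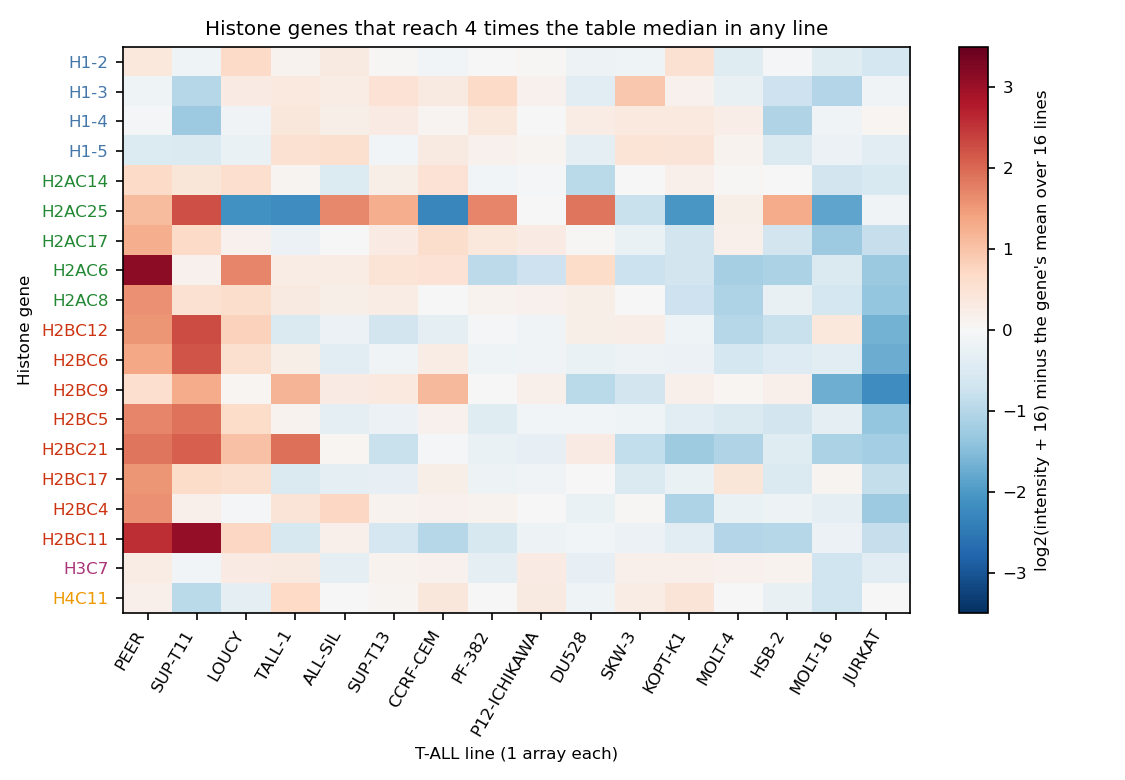
Each row is 1 of the 19 histone genes that reached 4 times the table median and each column 1 of 16 lines, ordered by the mean of the rows; colour is log2(intensity + 16) minus the gene's mean. Most H2B rows (red names) are high in PEER and SUP-T11 and low in JURKAT, but H2BC4 (60.7 in SUP-T11, median 52.6) is not high in SUP-T11. H1-3, H1-4 and H1-5 (blue names) are low in SUP-T11.

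Upstream sequences from RefSeq (GRCh38.p14) were at hand for 56 of the 61 genes, as windows of 250 bases before to 50 after the start. The 150 bases before the start are shown for genes that differ in their pattern over the lines: H2BC12, H2BC11 and H2BC21 (high in SUP-T11 and PEER), H2AC6 (high in PEER and LOUCY), H2AC25 (a pattern of its own), H1-2 (SD 0.34) and H4C11 (SD 0.42). Capitals mark the TATA box TATAAA, the CCAAT box, the octamer ATTTGCAT, the H1 box AAACACA and the hexamer GGTCCG of H4 genes, each searched on both strands. In H2BC21 a GGTCCG match on the reverse strand overlaps a CCAAT match.
H2BC12, chr6:27146859-27147008 on the minus strand: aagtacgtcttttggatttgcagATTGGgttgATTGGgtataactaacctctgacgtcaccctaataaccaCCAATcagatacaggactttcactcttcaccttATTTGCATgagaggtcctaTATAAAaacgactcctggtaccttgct
H2BC11, chr6:27132796-27132945 on the minus strand: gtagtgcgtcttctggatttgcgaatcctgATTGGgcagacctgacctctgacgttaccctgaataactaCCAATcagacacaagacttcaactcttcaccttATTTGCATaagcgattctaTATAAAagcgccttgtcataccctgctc
H2BC21, chr1:149886683-149886832 on the minus strand: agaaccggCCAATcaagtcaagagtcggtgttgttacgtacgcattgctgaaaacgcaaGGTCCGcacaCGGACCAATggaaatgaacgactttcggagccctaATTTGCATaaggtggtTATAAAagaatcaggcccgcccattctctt
H2AC6, chr6:26124022-26124171 on the plus strand: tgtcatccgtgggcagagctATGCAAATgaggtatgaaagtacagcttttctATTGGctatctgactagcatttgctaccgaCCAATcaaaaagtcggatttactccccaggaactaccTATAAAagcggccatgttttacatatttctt
H2AC25, chr1:228457874-228458023 on the minus strand: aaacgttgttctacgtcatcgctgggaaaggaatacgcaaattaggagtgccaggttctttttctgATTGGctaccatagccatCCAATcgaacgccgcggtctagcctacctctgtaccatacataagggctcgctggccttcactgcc
H1-2, chr6:26056471-26056620 on the minus strand: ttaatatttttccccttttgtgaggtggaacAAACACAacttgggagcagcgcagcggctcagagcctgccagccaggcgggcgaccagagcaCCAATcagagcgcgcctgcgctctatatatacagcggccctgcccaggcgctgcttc
H4C11, chr6:27823942-27824091 on the plus strand: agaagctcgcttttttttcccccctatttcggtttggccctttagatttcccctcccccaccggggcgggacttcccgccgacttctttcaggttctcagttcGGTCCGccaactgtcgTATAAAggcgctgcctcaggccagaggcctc

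Over the whole 300-base window the families carried different motifs. TATAAA or its reverse was present in 36 of the 56 histone promoters and in 3264 of 27305 promoters, 1 per gene symbol. CCAAT was present in 46 of the 56, against 35.7%, and in every H1, H2A, H2B and H3 promoter of the table but only 3 of 13 H4 promoters. The octamer, a site of the POU factor OCT1, was present in 13 of 16 H2B promoters, 8 of 13 H2A, 1 of 8 H3 and no H1 or H4 promoter, against 1.8% of all. The H3 match is that of H3C4, whose first listed RefSeq start is also that of H2AC7, so that 1 window is counted under both families. Windows also overlap in 8 pairs of H2A and H2B genes that start head to head, 194 to 248 bases apart. Any motif between the 2 starts is counted for both genes, so the H2A and H2B counts are not separate. AAACACA was present in 6 of 6 H1 promoters, no other histone promoter of the table and 5.76% of all. GGTCCG was present in 12 of 13 H4 promoters, 1 H2B, 1 H3, and 11.2% of all. A match is not a binding site, and no factor's binding was measured.

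Genes with and without the octamer lay on both sides of the limit. The octamer was found in the windows of H2BC12, H2BC11, H2BC21 and H2BC9, which reached the limit, and also in those of H2BC1, H2BC3 and H2BC14, which did not. Among the H2B genes without it, H2BC5 reached the limit in 15 lines and H2BC13 and H2BC15 in none. H2AC25 held 3 CCAAT matches and neither the octamer nor TATAAA.

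Among the H2A genes that reached the limit, 4 were highest in PEER and H2AC25 in SUP-T11. H2AC6 (HIST1H2AC) was 843 in PEER and 299.9 in LOUCY, 135 in DU528 and lower elsewhere, with a median of 72.9 and a lowest value of 23.4 in JURKAT (SD 1.17). H2AC8 was 180.3 in PEER, 83.2 in LOUCY and 78.6 in SUP-T11, with a median of 56.0 and a lowest value of 9.7 in JURKAT. H2AC17 was 222 in PEER and 139 in SUP-T11, with a median of 88.4 and a lowest value of 24.1 in MOLT-16. H2AC14, on an _x_at set, was 206 in PEER, 193 in LOUCY, 185 in CCRF-CEM and 172 in SUP-T11 and lowest in DU528 (57.5). LOUCY was the second highest line for H2AC6, H2AC8 and H2AC14. The set of H2AC6 also carries the suffix _s_at, although the annotation names this gene alone.

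H2AC25 (HIST3H2A), which lies on chromosome 1 apart from both large clusters, spread widest of all 42 genes (SD 1.67). It was 596 in SUP-T11, 447 in DU528, 396 in PF-382, 392 in ALL-SIL, 298 in HSB-2, 289 in SUP-T13 and 257 in PEER. It was between 58.3 and 131 in MOLT-4, P12-ICHIKAWA, JURKAT and SKW-3, and 19.4 or lower in MOLT-16, KOPT-K1, LOUCY, TALL-1 and CCRF-CEM. JURKAT, the lowest line for most H2B genes, was thus in the middle here with 100.9, while LOUCY and TALL-1, high for H2BC21, were near background. A second probe set naming H2AC25, of the _x_at kind, stayed between 12.96 and 45.1 and had r = 0.097 with the first, so the pattern rests on 1 probe set.

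The H3 and H4 genes with sets of their own had the smallest family median SDs, and 1 of each reached the limit. H3C7 ran from 79.2 in MOLT-16 through a median of 154 to 174 in TALL-1, and P12-ICHIKAWA (173) and LOUCY (171.5) also just passed the limit. H4C11 ran from 1319 in SUP-T11 through 2601 to 4165 in TALL-1 (SD 0.42), with MOLT-16 (1577) next to the bottom. Its probe set is of the _x_at kind and had r = 0.994 over the 16 lines with a set naming 14 H4 genes (1273 to 3993), so it may not speak for H4C11 alone. The other 7 H4 genes stayed at or below 92.2 in every line on their chosen sets, and a second set naming H4C8 reached 94.95 in PEER.

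Probe sets shared by several histone genes added what the single-gene sets could not show. A set naming 14 H4 genes lay between 14558 in SUP-T11 and 17918 in PF-382, with an SD of 0.08, in a table whose highest value was 24485. The set compared with H4C11 above names the same genes and had an SD of 0.40, so the small SD belongs to 1 set. Another 3 sets naming the same genes had highest values of 267.98, 43.6 and 32.6. Of 3 sets naming H2AC18 and H2AC19, a pair of near-identical genes on chromosome 1, one ran from 2284 in JURKAT to 5327 in TALL-1 (SD 0.31). The second was 1543 in LOUCY and 1379 in SUP-T11, 640 in PEER and lowest in TALL-1 (73.9), and the third stayed between 44.8 and 84.5. The first and second had r = -0.236 and a rank correlation of 0.018 over the 16 lines, so the order of the lines depended on the set chosen. Of 3 sets naming 5 H2B genes, one was 2318 in SUP-T11 and 1295.5 in PEER against a lowest value of 184 in JURKAT, with the same lines at the top and bottom as H2BC5 and H2BC6. The second, also of the _x_at kind, was 1299.6 in SUP-T11, 854 in PEER and 90.8 in JURKAT, while the third was highest in PEER (164), ALL-SIL (91.1) and SUP-T11 (90.1) and lowest in JURKAT (30.2). Of 2 sets naming 10 H3 genes, one was 404 in PEER, 169 in SUP-T11 and 9.2 in JURKAT, and the other was highest in PF-382 (43.7) and lowest in TALL-1 (6.3). A set naming these genes and H2AC7 was 133 in PEER, 120.9 in JURKAT and 56.2 in SUP-T11, so the H3 sets did not share 1 order of lines.

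**Figure D3:**
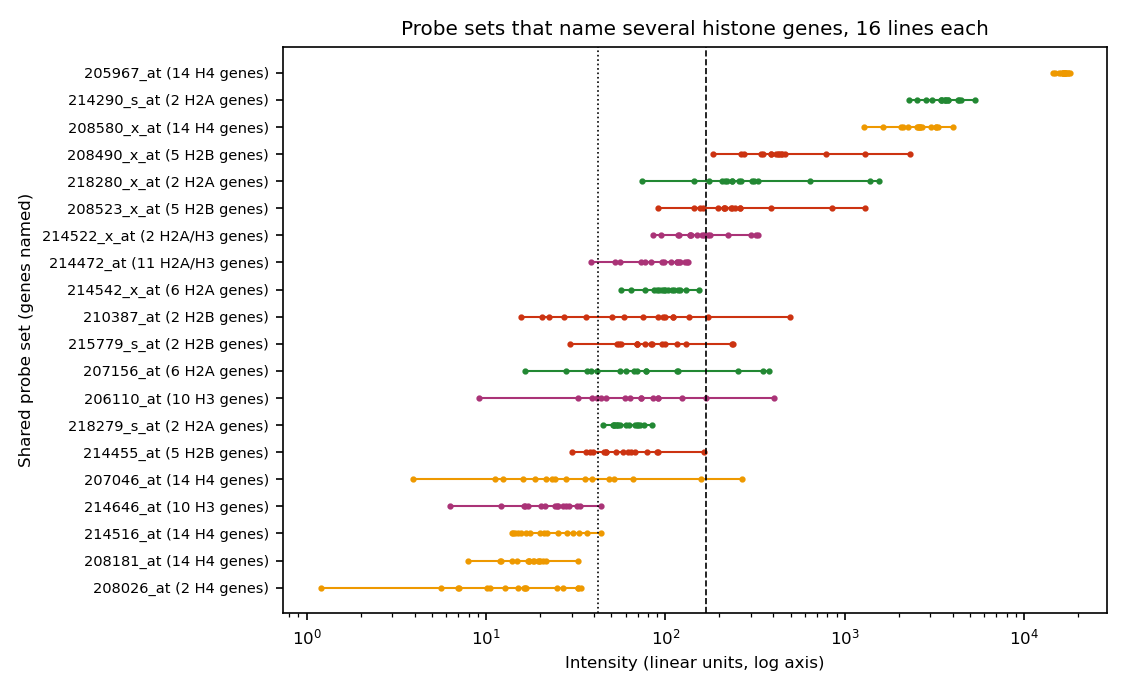
Intensity (log axis, linear units) of the 20 probe sets that name several histone genes, with 1 point per line and the number of genes named in brackets. Sets naming the same 14 H4 genes range from near background to above 14558 in every line.

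Read by line, 29 of the 42 genes had their 3rd highest value above the table median, as did 67.3% of all genes, and could be followed. H2BC11, with only SUP-T11 and PEER above it, was not among them. PEER was the highest line for 11 of the 29, against 5.22% of the 13310 genes that passed the same filter, SUP-T11 for 7 (9.83%) and TALL-1 for 5 (9.89%). JURKAT was the lowest line for 11 (4.96% of all genes), MOLT-16 for 7 (11.2%) and SUP-T11 for 4 (13.2%). Within H2B, JURKAT was lowest for 7 of 9 genes, and SUP-T11 and PEER were highest for 5 and 3. Within H4, TALL-1 was highest and SUP-T11 lowest for 3 of 7 genes each. PEER and SUP-T11 together held the highest pair of values for 6 of the 29 genes, against 1.07% of all. Overlapping probe sets are counted here several times, so these counts are a description.

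The mean of the centred values summarised each family. For H2B it was 1.20 in SUP-T11, 1.19 in PEER and 0.42 in LOUCY, between -0.37 and 0.28 in 12 lines, and -1.20 in JURKAT. For H2A it was 1.34 in PEER and 0.735 in SUP-T11 and lowest in MOLT-16 (-0.88), JURKAT (-0.74) and KOPT-K1 (-0.62). For H1 SUP-T11 was lowest (-0.73) and SKW-3 highest (0.40), and for H4 PEER (0.43), CCRF-CEM (0.35) and TALL-1 (0.34) were highest. SUP-T11 was therefore at the top for H2B and at the bottom for H1. The median pairwise r over 16 lines was 0.561 among 9 H2B genes and 0.526 between H2A and H2B genes, but -0.104 between H1 and H2B genes, with no test.

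Many H2A and H2B genes start head to head and share 1 promoter region. Going by RefSeq, 8 such pairs of members started 194 to 248 bases apart, and in 4 of them both genes had a probe set of their own. The r over 16 lines was 0.698 for H2BC4 and H2AC6, 0.681 for H2AC17 and H2BC17, 0.572 for H2AC14 and H2BC14, and 0.414 for H2AC15 and H2BC15, as a description. The median over all 54 combinations of tested H2A and H2B genes was 0.526. H2AC15 was not tested, being above the table median in only 2 lines, and its 2 own sets had r = -0.105. H2BC4 and H2AC6 were both highest in PEER and lowest in JURKAT, but LOUCY was the second highest line for H2AC6 (299.9) and read 48.2 for H2BC4.

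The levels were next set against genes that act on histone mRNA. SLBP was lowest in PEER (3555) and LOUCY (4884), had a median of 6781 and was highest in HSB-2 (7328), and JURKAT had 7125. Every gene was fitted on the log2 level of SLBP with limma, with Benjamini-Hochberg adjustment over 13309 genes. H2AC6 fell as SLBP rose, by 3.65 ± 0.58 (SE) log2 units per log2 unit of SLBP (adjusted p = 0.0327), and the other 28 histone genes tested did not pass. Across all genes 0.0676% passed, 0.0451% with a positive and 0.0225% with a negative slope. PEER and LOUCY, the lines with the least SLBP, were the lines with the most H2AC6, and DU528, next for H2AC6, had an SLBP of 5909.5. MOLT-16 had less SLBP than DU528 (5637.5) but read 52.8 for H2AC6, below that gene's median of 72.9.

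Most of the other slopes also lay below 0 without passing. Overlapping probe sets enter the counts that follow several times, so the slopes are not separate results. Of the 29, 23 had a slope below 0 (52.9% of all genes did), with a median of -0.47 against -0.03 for all, and 7 had an unadjusted p below 0.05 with a negative slope and none with a positive one (3.41% and 3.44% of all genes). Besides H2AC6 these were H2BC17 (slope -1.63 ± 0.37, SE, adjusted p = 0.141), H2AC8 (-1.68 ± 0.51, 0.377), H2BC5, H2BC12, H2BC4 and H2BC15. H4C11 (0.04 ± 0.39) and H1-3 (0.18 ± 0.54) had slopes near 0. For H2BC12 (slope -1.85 ± 0.75, SE, adjusted p = 0.644 in limma) SUP-T11 held the highest value, 6214, at an SLBP of 7043.

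The call of H2AC6 depended on single lines. It was lost in limma when HSB-2, JURKAT, LOUCY, MOLT-4, PEER, PF-382, SKW-3 or TALL-1 was left out in turn, with adjusted p-values from 0.0507 without MOLT-4 to 0.258 without PEER, while the slope stayed between -3.84 and -3.40 over all 16 such fits. Without PEER 17 of the 29 slopes lay below 0, against 23 with all 16 lines. The lean to negative slopes thus rested in part on PEER. With SUP-T11 left out, H2AC6, H2BC17 and H2BC5 passed. The shares of all genes in these fits are not given here, so the counts have no background beside them. With the ranks of SLBP in place of its level no histone gene passed, and H2AC6 had an adjusted p of 0.729.

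**Figure D4:**
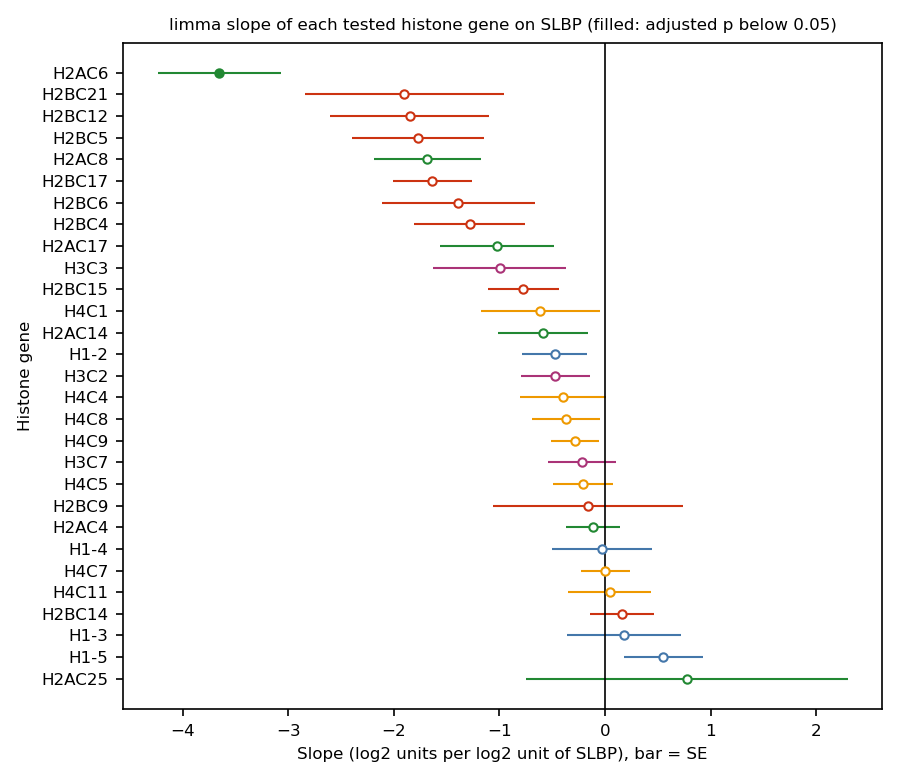
Slope of each of the 29 tested histone genes on SLBP from limma, in log2 units per log2 unit of SLBP, with bars of 1 SE; a filled point has an adjusted p below 0.05. Only H2AC6 is filled, and 23 points lie left of 0.

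**Figure D5:**
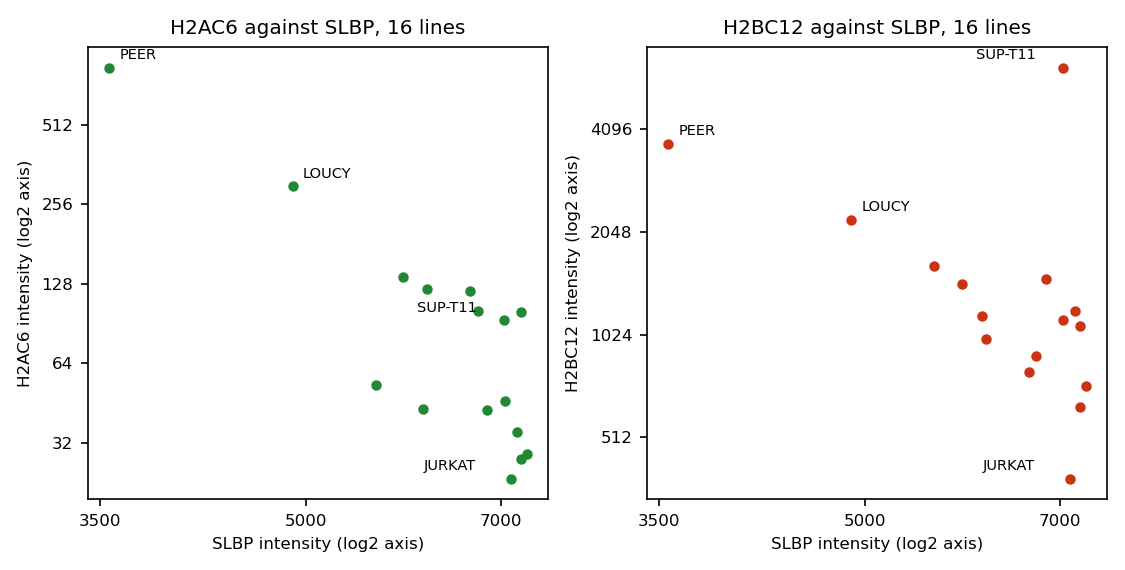
Intensity of H2AC6 (left) and H2BC12 (right) against that of SLBP in 16 lines, all axes in log2 steps, 1 point per line. PEER and LOUCY sit at low SLBP with high values of both genes, and SUP-T11 lies apart for H2BC12 only.

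The log2 ACTB ratio had r = 0.412 with SLBP over 16 lines, and the ratio itself was 1.503 in PEER, 1.45 in LOUCY and 1.94 in JURKAT. On that ratio none of the 29 genes passed in limma (smallest adjusted p = 0.0834, H2AC8), against 0.496% of all genes (0.0902% with a positive and 0.406% with a negative slope), and 5 had an unadjusted p below 0.05 with a negative slope, namely H2AC6, H2AC8, H2BC21, H2BC5 and H2BC6, against 9.1% of all, and none with a positive slope, against 5.16%. With the ratio as a covariate the slope of H2AC6 on SLBP was -2.98 (adjusted p = 0.0383). CASP8AP2 had r = 0.718 with SLBP, so the fits on these genes are not separate.

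No histone gene followed the other measures in limma at an adjusted p below 0.05. On NPAT, between 510.1 in MOLT-16 and 1146 in HSB-2, 0.00751% of all genes passed, and H2BC9 (slope 1.79 ± 0.55, SE, adjusted p = 0.383) and H2AC4 had an unadjusted p below 0.05, both with a positive slope. Of all genes 4.56% did so with a positive and 4.6% with a negative slope. On CASP8AP2, between 622 in PEER and 2427 in SUP-T11, 0.0301% of all genes passed, 0.015% in each direction, and H2AC6 alone of the 29 had an unadjusted p below 0.05, with a negative slope, against 8.76% of all genes (4.56% with a positive slope). On MKI67, a marker of dividing cells between 1288 in JURKAT and 4284 in KOPT-K1, no gene of any kind passed, and H1-5 alone of the 29 had an unadjusted p below 0.05, with a positive slope, against 1.38% of all genes (1.29% with a negative slope). In simulated data with these driver levels, limma recovered 10% of genes with a slope of 1 on SLBP, 14% on NPAT, 40% on CASP8AP2, 49% on MKI67 and none on the ACTB ratio, so a gene that did not pass may still have followed a driver.

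Genes that work with these histones had median SDs of 0.35 for transcription and mRNA processing, 0.30 for chaperones and 0.32 for S-phase genes, beside 0.49 for the 29 tested histone genes and 0.41 for all tested genes. All 24 measured genes of histone transcription and mRNA processing, among them CPSF3, the nuclease that cuts histone pre-mRNA (1375 to 2359), LSM11 of the U7 particle (419 to 1088) and CCNE1, which drives entry into S phase (340 to 1938), reached 4 times the table median in every line. So did all 17 chaperones, which carry histones to DNA. The widest ranges among them were those of HIRA (545 in SUP-T11 to 2756 in JURKAT) and HJURP (682 in LOUCY to 2570 in SUP-T11). CHAF1B (633 in P12-ICHIKAWA to 2208 in TALL-1) and CHAF1A (1135 in SUP-T11 to 3440.1 in ALL-SIL) came next. Of 19 S-phase and proliferation genes 18 reached that level in every line, and TK1, thymidine kinase, was below it in HSB-2 alone (23.8). Across all genes 32.2% reached that level in every line. SUP-T11, high for H2B, had the lowest summed level of both the chaperones (47966) and the proliferation genes (72537). Not every chaperone was low there, as HJURP, ASF1B and ATRX were highest in SUP-T11. None of these genes passed in any of the 5 fits in limma. On SLBP, 3 of 23 machinery genes tested had an unadjusted p below 0.05 with a positive and 2 with a negative slope. So had 1 of 17 chaperones with a negative and 1 of 19 S-phase genes with a positive slope. The shares of all genes were 3.44% with a positive and 3.41% with a negative slope.

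Replacement histones are variants whose supply is not limited to S phase, and H2AX also gives a stem-loop mRNA like that of the replication-dependent genes. H2AZ1, the H2A.Z variant, lay between 14512 and 17549 (SD 0.085), H2AX between 4689 in JURKAT and 9908 in TALL-1, and MACROH2A1 between 8489 and 13965. H2AJ was 1725 in DU528 with a median of 73.2, MACROH2A2 was 927 in LOUCY with a median of 36.8, and H1-10 ran from 561 in HSB-2 to 3647 in PEER. Of the 9 measured genes 6 reached the limit in every line, against 32.2% of all genes. An SD above 1 was found for 2 (H2AJ and MACROH2A2), against 12.5% of all. None of the 9 passed on SLBP in limma. There 2 had an unadjusted p below 0.05 with a negative slope, against 3.41% of all genes, and none with a positive slope, against 3.44%.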

How the data were processed

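Total RNA of 16 lines was measured on 1 array each. The authors deposited probe set intensities on a linear scale, 54675 per array from 0.6 to 24485; the sources used here do not give their software, background correction or scaling. No column was left out. Values were analysed as log2(intensity + 16) without further normalization. Probe sets were named through the platform annotation (41091 with 1 gene, 1801 with several, 11721 unlisted, 62 controls), and 19738 of 19775 symbols matched RefSeq. Each gene took the probe set with the highest mean among those naming only that gene.

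Genes whose 3rd highest value exceeded the table median were fitted on SLBP, NPAT, CASP8AP2, MKI67 or the log2 ACTB 3'/5' ratio with limma 3.58.1 (trend and robust, R 4.3.3) and called at a Benjamini-Hochberg adjusted p below 0.05. The fits were tested on simulated data with 200 changed genes each. Named are members that reach 4 times the table median, are called, or have an SD above 1, those just under the limit, the drivers, and up to 4 genes of widest range per companion list; others named were chosen after their values were seen. Members and lists were chosen with earlier results of these data known. P-values measure the spread between lines. Alternatives changed the pseudocount, normalization, probe set, filter, fit and lines. The number of arrays limits the precision. The remaining steps ran in Python 3.11.15 with pandas 2.3.3, numpy 2.4.6 and matplotlib 3.10.9.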

Additional observations from a re-analysis of the deposited data

How the results depend on the processing

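With each line left out in turn, between 15 (without PEER) and 19 histone genes reached 4 times the table median in any line, and between 3 and 5 (without JURKAT) in every line; without _x_at probe sets these counts were 14 and 2. The number with an SD above 1 was 10 with log2(value + 1) and 1 with log2(value + 64), and between 3 and 5 with a line left out. The median SD was between 0.40 and 0.45 with a line left out. PEER was the highest line for 11 to 16 of the tested genes and JURKAT the lowest for 11 to 13 with another line left out; these counts, the slope of H2AC6 and the count of slopes below 0 were added to the alternatives after the data were seen. The count called on SLBP was 0 with ranks of the driver and between 0 and 3 with a line left out. The counts called on the other 4 drivers were 0 in limma under each alternative run. Counting shared probe sets raised the genes covered from 42 to 61. Of 128 ranges of named genes recomputed, 9 moved by more than 1 SD, 8 of them with another pseudocount and 1, H2AC25, with the mean of all its probe sets (2.60). Low signal limits most H3 and H4 genes. No paired analysis was possible because the lines form 1 group with 1 array each.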
